A study of Gallus gallus with 24 samples.

Results

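The rod phototransduction genes described here are 7 genes of the rod light response: GNAT1, PDE6B, PDE6G, CNGA1, CNGB1, SLC24A1 and SAG. Members were the probe sets to which the platform's annotation gives 1 of these symbols, with the probe set of highest mean signal standing for a gene and any other given beside it. They came to 9 probe sets of 38439, or 7 of the 13009 genes with a probe set, and all 9 were bright enough to be tested. PDE6G and SAG had 2 probe sets each. Rhodopsin, the rod pigment, was not analysed here.

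In a rod, light converts rhodopsin to its active form, which switches on transducin, and transducin then releases the inhibition of a cyclic GMP phosphodiesterase. The phosphodiesterase breaks down cyclic GMP, the cation channel that cyclic GMP holds open in darkness closes, and the cell hyperpolarises. Calcium leaves the outer segment through an exchanger as the channel closes, and arrestin ends the response by binding activated rhodopsin. The chick retina is rich in cones, and its rods lie among them.

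The data were 24 Affymetrix GeneChip Chicken Genome arrays, 1 for each eye of 12 white Leghorn chicks, made from the retina together with its pigment epithelium. At 1 week of age, at the start of the light phase of a 12 h light cycle, each chick under ether had a translucent white goggle glued over its left or right eye in alternation, a diffuser that removes form vision and induces myopic growth, and the fellow eye was left uncovered. Per the labels' protocols 8 chicks wore the goggle for each duration, and the arrays used here cover 6 chicks at 6 h and 6 others at 3 d. The arrays thus form 4 groups of 6, namely open and goggled eyes after 6 h of wear, and open and goggled eyes after 3 d. The sample titles call every eye goggled and add C or E, which were read as control and experimental eye from the series' design text, and the sign of each goggle difference rests on that reading. The control was thus the fellow eye of a treated chick and not an eye of an untreated one. The chicks at 3 d had also grown older, and their hour of killing is not stated in the labels, so duration of wear, age and hour cannot be told apart.

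Values were linear signal intensities. Array medians ranged from 30.1 to 44.1, and the 3'/5' ratio of actin, a sign of RNA integrity, from 2.40 to 5.05. Background was taken from 57 reporter probe sets that match no chicken gene, whose 95th percentile was 22.8. The pigment epithelium was present on every array, since RPE65 ranged from 2211 to 5387. Some choroid or sclera was carried along in some eyes: the summed signal of 11 choroid, sclera and vessel markers ranged from 303.1 to 2534 in open eyes at 6 h, from 299.6 to 1474 in goggled eyes at 6 h, from 268.6 to 2608 in open eyes at 3 d and from 222.4 to 5118 in goggled eyes at 3 d. The 7 arrays with a sum over 1000 were open replicates 1 and 5 and goggled replicates 3 and 5 at 6 h, and open replicates 1 and 2 and goggled replicate 3 at 3 d. The 6 striated muscle markers with a probe set, as the iris would give, had summed signals of 394.3 in goggled replicate 5 and 1930 in goggled replicate 6 at 6 h and 615.9 in goggled replicate 3 at 3 d, against 36.4 to 110.0 on the other 21 arrays. In such bulk tissue, fewer cells of a type and less RNA per cell cannot be told apart. Precision is limited by the number of arrays.

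GNAT1 encodes the alpha subunit of rod transducin, the G protein that rhodopsin activates, and its probe set was dim. Its signal was 29.4 at the lowest, 42.4 at the median and 49.2 at the highest in open eyes at 6 h, with a mean of 40.9 ± 7.15 (SD, n = 6). Goggled eyes at 6 h ranged from 19.3 to 45.1 with a median of 31.5 (mean 31.5 ± 8.29). At 3 d the open eyes ranged from 21.8 to 41.6 with a median of 31.1 (30.9 ± 7.82), and the goggled eyes from 5.4 to 29.6 with a median of 22.8 (20.3 ± 9.40). Open eyes at 6 h were thus highest and goggled eyes at 3 d lowest, with the remaining groups between them and nearly level. The steps to the highest and from the lowest group were larger than the SD, but neighbouring groups overlapped. Signals passed the background level of 22.8 on 19 of 24 arrays, and on 3 of 6 in goggled eyes at 3 d.

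Phosphodiesterase is represented by PDE6B, a catalytic subunit, and PDE6G, the inhibitory subunit that transducin displaces. PDE6B ranged from 277.2 to 402.3 in open eyes at 6 h (median 312.2, mean 325.6 ± 47.2, SD, n = 6) and from 228.3 to 455.9 in goggled eyes at 6 h (288.6, 302.2 ± 86.1). At 3 d it ranged from 296.2 to 611.2 in open eyes (468.3, 475.0 ± 118) and from 315.0 to 528.0 in goggled eyes (419.8, 419.7 ± 95.7). Both eyes were therefore higher at 3 d in their means, with single arrays that overlapped the 6 h range. At 6 h the PDE6G medians were 1594 in open and 1448 in goggled eyes, and at 3 d they were 1850 and 1692, with means of 1575 ± 152, 1503 ± 271, 1894 ± 363 and 1711 ± 361. All arrays lay between 1230 and 2537, and all 4 groups overlapped. Its second probe set was near background (mean signal 36.1, above 22.8 on 17 of 24 arrays) and did not vary with the first (Pearson r = -0.03 over 24 arrays after removal of group means), so the first alone carries the PDE6G result.

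The cyclic GMP-gated channel of rods is built from CNGA1, which can form a channel by itself, and CNGB1, which modulates it. CNGA1 ranged from 277.1 to 414.5 in open eyes at 6 h (median 370.7, mean 359.9 ± 48.4, SD, n = 6), from 290.9 to 495.4 in goggled eyes at 6 h (349.0, 366.9 ± 71.7), from 286.3 to 554.9 in open eyes at 3 d (395.1, 399.9 ± 96.1) and from 312.2 to 413.0 in goggled eyes at 3 d (356.2, 360.7 ± 40.4). Its group means lay within 1 SD of each other. CNGB1 ranged from 64.3 to 110.7 in open eyes at 6 h (94.5, 90.3 ± 18.4) and from 75.5 to 117.4 in goggled eyes at 6 h (96.5, 95.8 ± 16.3), but from 123.4 to 202.0 in open eyes at 3 d (143.1, 152.7 ± 27.6) and from 95.9 to 204.2 in goggled eyes at 3 d (139.0, 145.6 ± 37.1). Every open eye at 3 d lay above every open eye at 6 h, while the goggled eyes of the 2 times overlapped. The share of all probe sets whose open eyes separate in this way was not counted.

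SLC24A1 encodes the sodium, calcium and potassium exchanger of the rod outer segment. It ranged from 577.0 to 868.6 in open eyes at 6 h (median 707.9, mean 719.6 ± 114, SD, n = 6), from 435.3 to 803.8 in goggled eyes at 6 h (668.4, 646.4 ± 127), from 616.3 to 957.8 in open eyes at 3 d (768.3, 772.3 ± 112) and from 493.3 to 733.8 in goggled eyes at 3 d (606.2, 605.0 ± 100). Goggled eyes at 3 d were the lowest group and open eyes at 3 d the highest, and they overlapped. SAG encodes the arrestin of rods. At 6 h its medians were 2868 in open and 2897 in goggled eyes, and at 3 d they were 3813 and 3215, with means of 3128 ± 769, 2889 ± 453, 3677 ± 584 and 3330 ± 455 and a full range from 2261 to 4508. One open eye at 3 d, replicate 2, stood apart from the rest of its group at 2528. The second SAG probe set (mean signal 1989) varied with the first from array to array (r = 0.96).

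**Figure D1:**
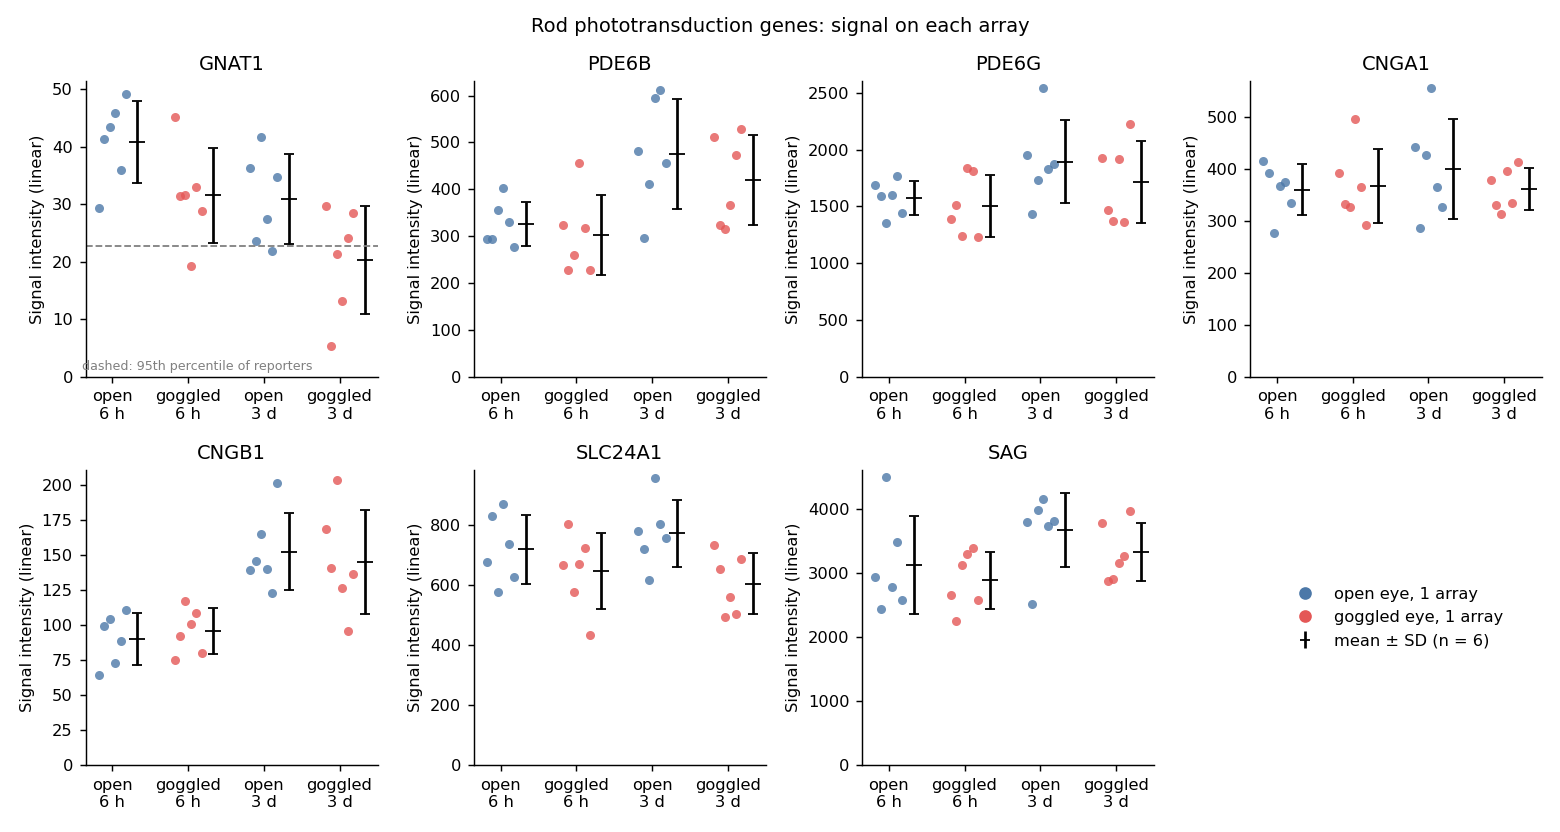
Linear signal intensity (y axis, from 0) of the 7 genes in the 4 groups, each point 1 array, with the mean ± SD (n = 6) beside it in black. The CNGB1 points of open eyes at 3 d (123.4 to 202.0) lie above all those of open eyes at 6 h (64.3 to 110.7), a separation whose share over all probe sets was not counted. The GNAT1 points lie close to the dashed background level of 22.8.

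Goggled and open eyes were compared at each time to see whether loss of form vision changes these genes. At 3 d all 7 had lower values in goggled eyes, or 6 of 7 after median centring, where CNGB1 had 0.0082, and none passed the test. The differences on the log2(signal + 16) scale were -0.40 for GNAT1, -0.35 for SLC24A1, -0.16 for PDE6B, -0.15 for PDE6G, -0.14 for SAG, -0.12 for CNGA1 and -0.08 for CNGB1. Their median was -0.15, beside -0.00 over all 11136 genes, of which 5695 had lower values. The members' median was -0.17 after quantile normalization and -0.063 after median centring. The median of all probe sets moved as well, from -0.030 to 0.0025 after quantile normalization and to 0.057 after median centring. Limma called 2 probe sets of 26907 in this comparison, or 0.00743 percent, at an adjusted p under 0.05 (Benjamini-Hochberg over all probe sets), and 1448 had an unadjusted p under 0.05. With the chick as a block it called 2, and 2390 had an unadjusted p under 0.05. The count of 0 called members is thus read against a background of almost no calls.

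Markers of other cells differed between the eyes in the same comparisons, and of those given here VIP alone, an amacrine cell marker, passed limma's test. Of 12 pigment epithelium markers, 10 had lower values in goggled eyes at 6 h (median log2 -0.14) and 10 at 3 d (-0.09), with summed signals of 8846 to 16377 in open and 8993 to 14346 in goggled eyes at 6 h, and of 9104 to 20607 and 8903 to 20257 at 3 d. All 4 tested striated muscle markers had higher values in goggled eyes at 6 h (median 0.94) and at 3 d (0.31), where the 3 arrays named above were high. Of 10 amacrine cell markers, 7 had lower values in goggled eyes at 6 h (median -0.02) and 8 at 3 d (-0.10). VIP passed at 3 d (log2 -0.95, limma adjusted p = 0.0123). These values depend on scaling. After median centring 7 of 12 pigment epithelium markers (median -0.0049) and 5 of 10 amacrine cell markers (-0.013) had lower values at 3 d. At 6 h these counts were 10 and 5. Under that scaling 0 probe sets passed at 3 d, so VIP lost its call there. The part of these markers in the differences of the rod genes was not tested.

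SLC24A1, the exchanger, was lower in the goggled eye of each of the 6 chicks at 3 d. The share of all probe sets lower in all 6 chicks was not counted. Its open and goggled signals were 780.3 and 733.8 in chick 1, 719.0 and 652.3 in chick 2, 616.3 and 493.3 in chick 3, 957.8 and 560.0 in chick 4, 804.2 and 503.2 in chick 5, and 756.3 and 687.2 in chick 6. Chicks 4 and 5 had the largest gaps. Their goggled arrays also had the lowest median signals of all 24 (30.1 and 30.6), and that of chick 4 had an actin 3'/5' ratio of 5.05, against 3.44 to 3.92 in the rest of its group. Without goggled replicate 4 or 5 the SLC24A1 difference was -0.33 or -0.30, and without both eyes of either chick -0.27 or -0.29. The count of 6 chicks rests on pairing eyes by number, which is least sure for chicks 2 and 3: open replicate 2 correlated at 0.290 with goggled replicate 3 and at 0.198 with goggled replicate 2, and both arrays of the closer pair were rich in choroid markers. With these pairs exchanged, 616.3 would stand against 652.3 and 5 of 6 would be lower. The SLC24A1 difference was -0.35 (SE 0.14, 95% interval -0.63 to -0.06, unadjusted p = 0.0190, limma adjusted p = 0.863). That fit had no chick block, so its SE, interval and p-values do not use the pairing of the eyes. Results with the chick as a block are given further below. GNAT1 was lower in 5 of 6 chicks, with open and goggled signals of 36.2 and 29.6, 23.6 and 5.4, 41.6 and 21.4, 27.4 and 13.1, 21.8 and 24.1, and 34.7 and 28.4 in chicks 1 to 6. Chick 5 was the exception, and chick 2 had the lowest goggled value of all arrays. The GNAT1 difference in the same fit without a block was -0.40 (SE 0.16, 95% interval -0.73 to -0.07, unadjusted p = 0.0208, limma adjusted p = 0.884). Its size rests on the offset added before log2, since so dim a signal gave -0.72 with an offset of 1 and -0.17 with 64. It depends on scaling too. Array medians at 3 d were 33.3 to 40.1 in open and 30.1 to 36.4 in goggled eyes. Median centring moved the median difference of all probe sets at 3 d from -0.030 to 0.057. The intervals of the other 5 genes spanned 0, from -0.53 to 0.20 for PDE6B to -0.38 to 0.22 for CNGB1.

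At 6 h, 5 of the 7 members had lower values in goggled eyes and none passed. Differences were -0.27 for GNAT1, -0.16 for SLC24A1, -0.13 for PDE6B, -0.10 for SAG, -0.08 for PDE6G, 0.02 for CNGA1 and 0.08 for CNGB1. Limma called 0 of all probe sets (0 percent), with 639 at an unadjusted p under 0.05. With the chick as a block it called 0 too, with 1235 at an unadjusted p under 0.05. GNAT1 was lower in 5 of 6 chicks, SLC24A1 in 5 of 6 and SAG in 5 of 6, and the share of all genes reaching this was not counted. For SLC24A1 the gap came from chicks 4 (868.6 open, 670.6 goggled) and 6 (626.5 open, 435.3 goggled), while the other 4 chicks differed by at most 0.05 on the log2 scale. The goggled array of chick 6 was the one with the striated muscle sum of 1930, and its actin ratio, 4.53, was the highest of its group. Without that array, but with the open eye of chick 6 kept, the SLC24A1 difference at 6 h was -0.055. With both eyes of any 1 chick left out it ranged from -0.19 to -0.092.

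Over both times, GNAT1 was lower in the goggled eye of 10 of 12 chicks (log2 -0.33, SE 0.11, unadjusted p = 0.00744, limma adjusted p = 0.764), and SLC24A1 was lower in 11 of 12 (log2 -0.25, SE 0.10, unadjusted p = 0.0156, adjusted p = 0.782). Neither passed. PDE6B was lower in 7 of 12 chicks, PDE6G and CNGA1 in 8 each, SAG in 9 and CNGB1 in 6. The share of all genes lower in as many chicks was not counted, so these counts have no background rate. GNAT1 signals passed the background level on only 19 arrays, so some of its signs were read between values near background. The second SAG probe set was lower in 6 of 12, with 3 of 6 at each time, and its differences were -0.02 at 6 h and -0.09 at 3 d, against -0.10 and -0.14 for the first. Percent called over all probe sets was 0.00743. The goggle effect at 3 d minus that at 6 h ranged from -0.19 (SLC24A1) to -0.03 (PDE6B) on the log2 scale, and limma called 0 of the 7 members and 0 percent of all probe sets, of which 598 had an unadjusted p under 0.05. With the chick as a block it called 0 too, and 1136 had an unadjusted p under 0.05. These comparisons share arrays, so they are not independent of one another.

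**Figure D2:**
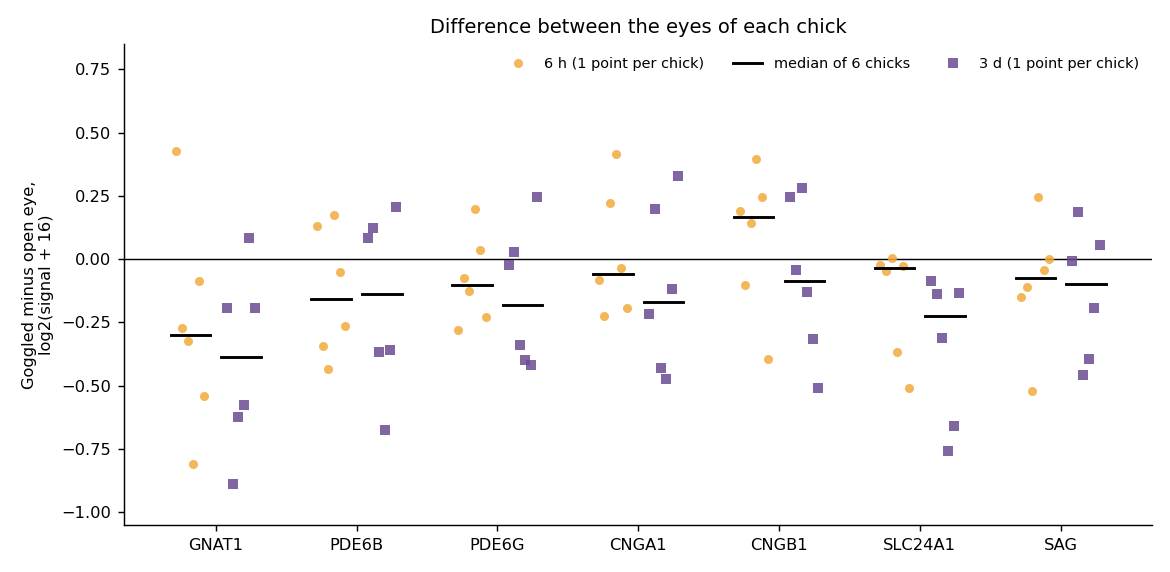
Goggled minus open eye on the log2(signal + 16) scale (y axis) for the 7 genes (x axis), each point 1 chick at 6 h (circles) or 3 d (squares), with black bars at the median of 6 chicks. All 6 SLC24A1 points at 3 d lie below 0, and for the other genes at least 1 chick at each time lies on either side of it. How many of all probe sets have all 6 points below 0 was not counted.

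Eyes at 3 d were set against eyes at 6 h, separately for open and goggled eyes, which are different chicks at each time. The open and goggled comparisons use the 2 eyes of the same chicks, so a result in both is not independent support. CNGB1, the modulatory channel subunit, rose in both. In open eyes it rose by 0.67 on the log2 scale, or 1.59-fold (SE 0.15, 95% interval 0.37 to 0.97, limma adjusted p = 0.00736). In goggled eyes it rose by 0.51, or 1.43-fold (SE 0.15, 95% interval 0.21 to 0.82, adjusted p = 0.0246). CNGA1, its partner, differed by 0.13 in open eyes (95% interval -0.16 to 0.41, adjusted p = 0.635) and by -0.01 in goggled eyes (-0.30 to 0.27, adjusted p = 0.968). The difference between the 2 subunits was not tested.

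The CNGB1 call in goggled eyes was lost without goggled replicate 1 or 6 at 6 h or goggled replicate 1 or 3 at 3 d (limma adjusted p = 0.0587, 0.0551, 0.0548 and 0.0587), while the call in open eyes was kept whichever array was left out. Without the 7 arrays rich in choroid markers the differences were 0.61 in open and 0.53 in goggled eyes, with adjusted p of 0.0809 and 0.0636. That fit also called fewer probe sets in all, 272 in place of 1975 in open and 1208 in place of 3416 in goggled eyes.

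PDE6B, the catalytic subunit, was higher by 0.50 in open eyes (1.41-fold, SE 0.18, 95% interval 0.13 to 0.86, limma adjusted p = 0.0863) and by 0.46 in goggled eyes (1.38-fold, 95% interval 0.10 to 0.83, adjusted p = 0.0842), and passed in neither. It passed in open eyes without open replicate 2 at 3 d (difference 0.62, adjusted p = 0.0308) and in goggled eyes without goggled replicate 4 at 6 h (0.59, adjusted p = 0.0275). PDE6G differed by 0.25 and 0.18 (adjusted p = 0.298 and 0.424) and SAG by 0.25 and 0.21 (adjusted p = 0.322 and 0.361) in open and goggled eyes. SLC24A1 differed by 0.10 and -0.08 (adjusted p = 0.710 and 0.731).

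GNAT1 alone of the members had lower values at 3 d in both eyes. The difference was -0.28 in open eyes (95% interval -0.62 to 0.05, limma adjusted p = 0.300) and -0.42 in goggled eyes (95% interval -0.75 to -0.08, adjusted p = 0.0889). It passed in goggled eyes without goggled replicate 4 at 6 h (-0.50, adjusted p = 0.0468). With the dim signal in view, the goggled-eye difference was -0.74 with an offset of 1 and -0.18 with 64. It also depends on scaling. Array medians were 30.1 to 36.4 in goggled eyes at 3 d and 35.0 to 44.1 at 6 h. Median centring moved the median difference of all probe sets in goggled eyes from -0.08 to 0.12. Under it the GNAT1 fall was smaller, with its sign unchanged.

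These counts stand against many calls between the times. In open eyes limma called 7.34 percent of all probe sets, 2.62 percent higher and 4.72 percent lower, beside 1 of 7 members called higher. In goggled eyes it called 12.7 percent, 4.13 percent higher and 8.57 percent lower, beside again 1 of 7 higher. Counted as genes, like the members, it called 6.04 percent of 11136 in open eyes (291 higher, 382 lower). The share of genes called in goggled eyes was 11.3 percent (584 higher, 672 lower). Of the members, 6 had higher values at 3 d in open eyes (median 0.25, beside -0.02 over all 11136 genes) and 4 in goggled eyes (median 0.18, beside -0.02), or 6 in goggled eyes after median centring. The direction of all genes depends on scaling: of the probe sets called, 35.7% were higher in open and 32.5% in goggled eyes, against 46.7% and 48.1% after quantile normalization and 80.0% and 86.1% after median centring. Median centring moved the median of all probe sets from -0.05 to 0.07 in open eyes and from -0.08 to 0.12 in goggled eyes, and under it PDE6B passed in both eyes (0.62 and 0.66, adjusted p = 0.0455 and 0.0214).

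**Figure D3:**
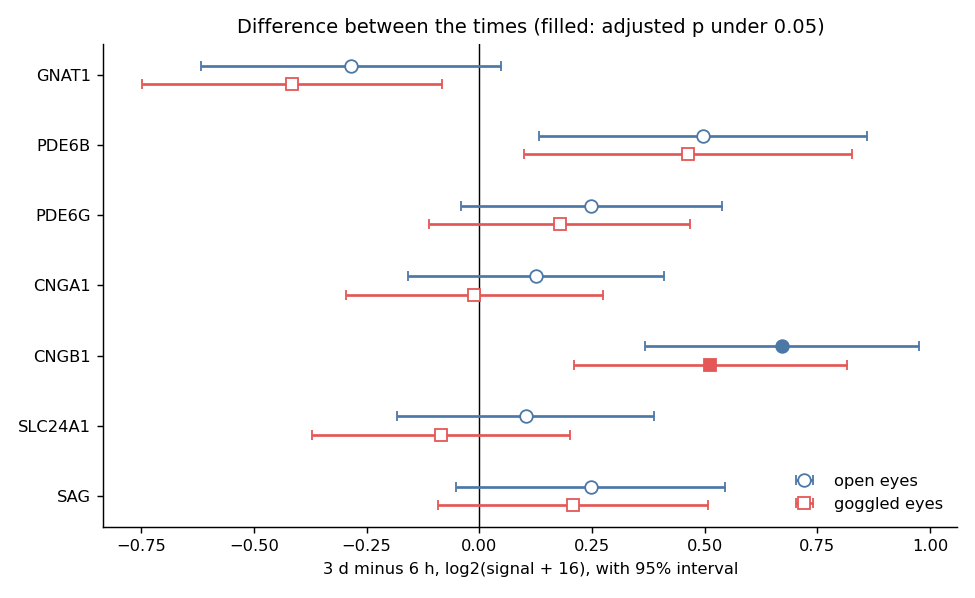
Difference between 3 d and 6 h on the log2(signal + 16) scale (x axis) with its 95% interval for the 7 genes (y axis), in open eyes (circles) and goggled eyes (squares), filled where the adjusted p was under 0.05. CNGB1 alone is filled, at 0.67 and 0.51, and GNAT1 alone lies below 0 in both.

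The genes around the members in the light response were described in the same way. Their counts stand beside 6.04 percent of all 11136 genes called in open eyes and 11.3 percent in goggled eyes. Of 12 other tested genes of rod or shared phototransduction, 2 rose between 6 h and 3 d in open eyes and none fell. These were GUCA1A, which lets calcium regulate guanylate cyclase (log2 0.75, limma adjusted p = 0.0125), and PDC, phosducin, which binds the transducin beta and gamma subunits (0.36, adjusted p = 0.0141). Both rose in goggled eyes too, by 0.70 (adjusted p = 0.0130) and 0.32 (adjusted p = 0.0191), though PDC lost that call after quantile normalization (0.23, adjusted p = 0.0651). The list's median was 0.14 in open and 0.12 in goggled eyes. After median centring 5 of the 12 passed as higher in open eyes and 6 in goggled eyes. That scaling also called more probe sets in all, 2536 in place of 1975 in open and 4901 in place of 3416 in goggled eyes.

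Of 12 cone phototransduction genes, PDE6C, the catalytic phosphodiesterase of cones, rose by 0.44 (limma adjusted p = 0.0162) in open and 0.50 (adjusted p = 0.00507) in goggled eyes. GRK7, the cone opsin kinase, rose by 0.43 (adjusted p = 0.0493) and 0.42 (adjusted p = 0.0402). GNGT2, a transducin gamma subunit of cones, fell by 0.45 in goggled eyes (adjusted p = 0.0181). After quantile normalization GRK7 missed the threshold in both eyes (0.40 and 0.37, adjusted p = 0.0612 and 0.0724) and GNGT2 did too (-0.28, adjusted p = 0.140), as it did after median centring (-0.25, adjusted p = 0.132). Without such rescaling the rest of the list did not pass, and the list's median was 0.22 in open and 0.21 in goggled eyes. With median centring 4 of the 12 passed as higher in open eyes and 4 in goggled eyes. Rod and cone genes of the light response thus both held members that rose between the times. Whether more of them did so than of all genes was not tested.

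Among 10 outer segment genes, none passed in open eyes, and 3 rose in goggled eyes: EYS, a secreted protein of photoreceptors (log2 0.52, limma adjusted p = 0.0167), ABCA4, the retinoid flippase (0.40, adjusted p = 0.00583), and IMPG2, a proteoglycan of the matrix between photoreceptors (0.39, adjusted p = 0.0229). The list's median was 0.09 in open and 0.12 in goggled eyes. Median centring gave 1 of the 10 passing as higher in open eyes and 4 in goggled eyes. Of 11 photoreceptor transcription factors none passed in open eyes (median 0.09), and RORA, a nuclear receptor, rose in goggled eyes (0.26, adjusted p = 0.0244). That was 9.09 percent of the list, below the 11.3 percent of all genes called in goggled eyes. RORA lost that call after quantile normalization (0.21, adjusted p = 0.0697), and the list's median in goggled eyes, -0.12, was 0.08 after median centring. Under median centring 1 of the 11 factors passed as higher in open eyes and 3 in goggled eyes.

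Markers of other cells also had different values at the 2 times, though few passed. Values at 3 d were higher in open eyes for 11 of 12 pigment epithelium markers, with summed signals of 8846 to 16377 at 6 h and 9104 to 20607 at 3 d, and 0 of them passed (limma, median log2 0.28). In goggled eyes 10 of 12 were higher, with sums of 8993 to 14346 at 6 h and 8903 to 20257 at 3 d, and again 0 passed. Of 8 cone markers, 7 were higher in open eyes (sums of 16263 to 22060 against 19463 to 30196) and 6 in goggled eyes (17042 to 24194 against 19376 to 24566), and 1, PDE6C, passed in each. Summed signals of the 7 rod members overlapped likewise, from 5432 to 7221 at 6 h and 5435 to 8979 at 3 d in open eyes, and from 4879 to 6881 and 5621 to 7989 in goggled eyes. In other marker lists, TRPM1 of bipolar cells rose by 0.39 in open and 0.50 in goggled eyes (limma adjusted p = 0.0256 and 0.00396). SNCG of ganglion cells rose by 0.42 and 0.44 (adjusted p = 0.0183 and 0.00976). Values at 3 d were higher for 5 of 6 tested bipolar cell markers and 4 of 7 ganglion cell markers, in either eye. Goggled eyes alone had calls for SLC1A3 of Mueller glia (0.30, adjusted p = 0.0129) and TFAP2A of amacrine cells (-0.68, adjusted p = 0.0129). In these eyes 5 of 7 Mueller glia markers and 5 of 10 amacrine cell markers had higher values at 3 d. SLC1A3 lost its call after quantile normalization, where 0 Mueller glia markers passed. The part of these marker differences in the CNGB1 result was not tested.

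No gene of the light response, outer segment and transcription factor lists passed between goggled and open eyes. The widest differences at 3 d were 0.22 for RGS9, which shortens the life of active transducin, and -0.20 for GUCY2D, the guanylate cyclase of the outer segment. OPN2SW, a cone pigment of short wavelengths, differed by -0.35, and GRK7 by -0.24. For CDHR1, a cadherin of the outer segment, the difference was -0.18, and for EYS 0.15. Among the transcription factors, MAFA differed by -0.35 and the thyroid hormone receptor THRB by -0.25. At 6 h the widest were AIPL1 (0.21) and PRKCA (-0.14), GRK7 (-0.22) and ARR3, the cone arrestin (-0.10), EYS (-0.27) and IMPG2 (-0.25), and NR2E3 (-0.51, at a mean signal of 21.9, below background) and MEF2D (0.32).

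The members did not all vary together from array to array. After removal of group means, 14 of 21 member pairs correlated above 0 over the 24 arrays, with Pearson r from -0.23 to 0.80 and a median of 0.19. PDE6G and CNGA1 went together most closely (r = 0.80), followed by PDE6B and SAG (0.66), PDE6G and SLC24A1 (0.66), PDE6B and PDE6G (0.64) and PDE6B and CNGA1 (0.61). CNGB1 stood apart, with r of -0.20 to PDE6B and -0.23 to CNGA1, and GNAT1 did not exceed 0.21 with any member. These arrays share chicks and, within an array, the same RNA, labelling and choroid content, so the values describe the arrays only.

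**Figure D4:**
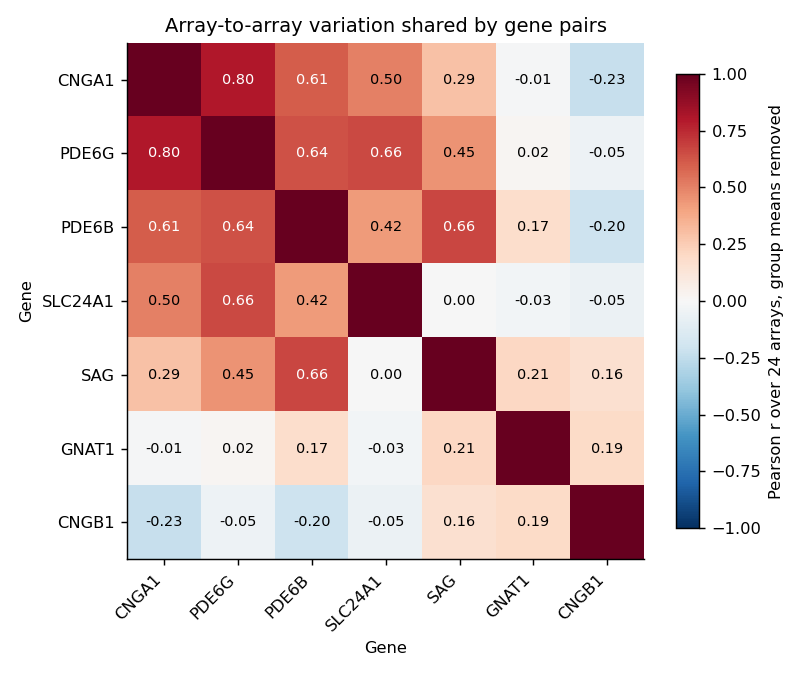
Pearson r (colour scale from -1 to 1, values printed) between the 7 genes on both axes over 24 arrays after removal of group means. CNGA1, PDE6G, PDE6B and SLC24A1 form a block of positive values up to 0.80, while the GNAT1 and CNGB1 rows lie between -0.23 and 0.21.

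Some arrays were high or low across members. Goggled replicate 6 at 6 h lay below its group median for 7 of 7 genes, and it was the array richest in striated muscle markers (sum 1930). By contrast goggled replicate 5 at 6 h and goggled replicate 1 at 3 d lay above their group medians for 7 of 7. Goggled replicate 5 at 6 h was itself rich in choroid markers (sum 1474) and striated muscle markers (sum 394.3). Open replicate 2 at 3 d, which was rich in choroid markers (sum 2608), was the lowest of its group for 4 genes. Open replicate 4 at 3 d was the highest of its group for 4 genes, and so was goggled replicate 6 at 3 d.

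After removal of group means and scaling of each gene, 10090 genes were ranked by their correlation with the members' mean over the 24 arrays. PPEF2, a photoreceptor phosphatase with calcium-binding EF hands, came first (r = 0.84). WDCP (0.75), DEPTOR (0.73), LUC7L (0.72), GRK7 (0.69), TMEM138 (0.69), CADNL (0.69), TTN (0.68), TRMT11 (0.68) and SENP8 (0.67) followed among genes outside the member list. Ranked against the mean of the other members, PDE6G had 0.75, PDE6B 0.67, CNGA1 0.56, SAG 0.49, SLC24A1 0.41, GNAT1 0.14 and CNGB1 -0.05. Of the other lists, the median r was 0.31 for 12 rod or shared phototransduction genes, 0.25 for 12 cone genes and 0.35 for 10 outer segment genes, beside -0.00 for all genes. It was -0.00 for 12 pigment epithelium markers, -0.32 for 9 choroid, sclera and vessel markers and -0.25 for 7 ganglion cell markers. It was -0.36 for 3 striated muscle markers, -0.23 for 2 blood markers and 0.05 for 10 photoreceptor transcription factors, of which 6 were above 0. The light response and outer segment lists thus lay above the median of all genes, the transcription factors close to it, and the choroid, ganglion cell, muscle and blood lists below it.

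PDE6B lies on the Z chromosome in the GRCg7b annotation, of which male birds carry a pair and females a single copy. HINTW, a gene of the female W chromosome, was low (5.3 to 248.6) on 8 arrays and high (5353 to 7615) on 16, alike in both eyes of each of the 12 chicks, with 2 low chicks at each time. PDE6B ranged from 294.0 to 455.9 on the 4 low-W arrays at 6 h (median 362.8) and from 228.3 to 355.4 on the 8 high-W arrays (285.7). At 3 d it ranged from 472.6 to 611.2 (496.5) and from 296.2 to 595.5 (388.9). High-W arrays were thus lower in their medians at both times, with overlap. With the W-linked signal as a covariate, PDE6B differed by -0.28 between the W levels (SE 0.12, limma adjusted p = 0.262), which did not pass. CNGB1 went the other way, by 0.046 per log2 unit of the W-linked signal (unadjusted p = 0.00660, limma adjusted p = 0.128), against -0.047 for PDE6B (unadjusted p = 0.0250), and the other 5 members had adjusted p from 0.521 to 0.965. By comparison 247 of 534 Z-linked genes passed as lower with W and 7 as higher, with a median of -0.29, and 33 of 10602 other genes passed as lower and 95 as higher, with a median of 0.02. The 6 members other than PDE6B, CNGB1 included, lie on autosomes in that annotation. The covariate fit had no chick block, so both eyes of a chick counted as separate arrays, although the W-linked signal differs only between the 12 chicks. Its SE and p-values may therefore be too small, and its counts of passing genes too high.

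**Figure D5:**
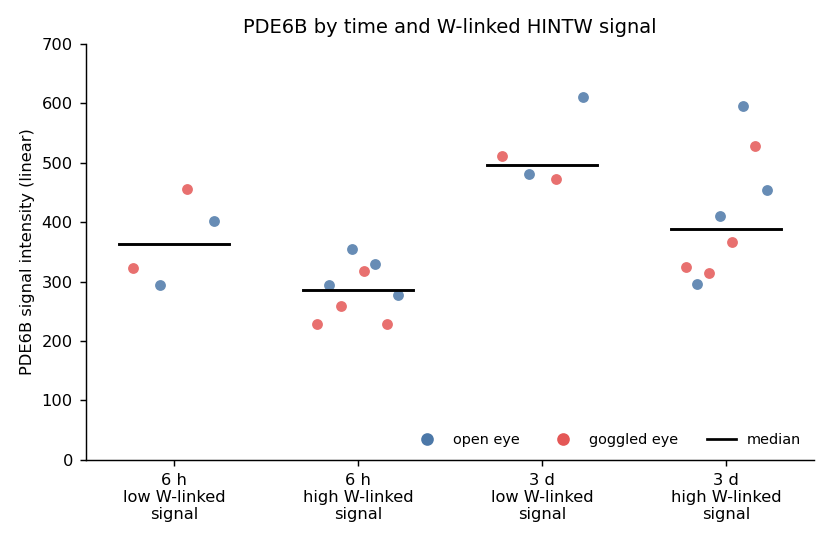
PDE6B linear signal intensity (y axis, from 0) by time and by low or high W-linked HINTW signal (x axis), each point 1 array, blue for open and red for goggled eyes, black bars at the median. The medians at high W-linked signal, 285.7 at 6 h and 388.9 at 3 d, lie below those at low signal, 362.8 and 496.5.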

How the data were processed

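Each array received biotin-labelled cRNA made from 3 µg of an eye's total RNA and was scanned with GCOS 1.4, per the labels' protocols; the submitters' processing notes name GCOS and RMA without their roles. In the deposited table each probe set has 1 linear signal intensity per array, with a 2% trimmed mean of 150.03 on each array; their summarisation is not stated in the labels. Of 38535 probe sets, 96 Affymetrix controls were removed and those with a mean signal under 14.4 (the 30th percentile) left out, which left 26907. On the log2(signal + 16) scale, 4 group means were fitted to 24 arrays with limma 3.58.1 in R 4.3.3 (20 residual degrees of freedom, eBayes), with Benjamini-Hochberg adjustment over all 26907 probe sets and a threshold of 0.05. A fold change on this scale understates that of dim genes. Probe sets of several genes (177) named no gene. Gene symbols were updated by gene ID through RefSeq's GRCg7b table for 26853 probe sets, and chromosomes come from it.

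The numbers in the labels were taken as chicks: the deviations of same-numbered eyes from their group means correlated at 0.222 to 0.424 at 6 h and 0.101 to 0.444 at 3 d, all above 0.1. Best matches had the same number for 6 of 6 open eyes at 6 h and for 5 of 6 at 3 d, and the labels do not state the pairing. The second fit had the chick as a block (10 residual degrees of freedom). The genes and lists were chosen with earlier results of these data known, and the named genes follow a rule: all members, passing genes of the other lists (up to 4 per list and direction) or else the 2 with the widest difference, and the 10 genes most like the members. Scripts were tested on simulated data. Alternatives were other filters, offsets, scalings, weights, blocks, thresholds and left-out arrays; the W-linked covariate, the fit without arrays rich in choroid markers and the left-out chicks were added after seeing the data. Figures used Python 3.11.15 and matplotlib 3.10.9.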

Additional observations from a re-analysis of the deposited data

Results flagged for a closer look

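Of 36 groups of values (the 9 member probe sets in 4 groups of 6), 1 held an array far from the others. The first SAG probe set in open replicate 2 at 3 d had a signal of 2528, and its gap to the nearest of the other 5 open eyes was 0.743 of the group's range, above the critical 0.625. The second SAG probe set was also lowest of its group on that array, at 1416.5, but was not flagged. Chance alone flags about 1 in 20 such groups. That array was also rich in choroid markers (sum 2608), and its part in the SAG value was not tested.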

How the results depend on the processing

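With the chick as a block no member call changed: at 3 d the block fit gave SLC24A1 an adjusted p of 0.408 and GNAT1 0.467 (differences of -0.35 and -0.40), and 0, 2 and 3 probe sets were called for 6 h, 3 d and both times. Members called between the times, 1 in each eye, became 2 in open and 2 in goggled eyes with median centring or array weights, where PDE6B passed as well, 2 and 3 at an adjusted p under 0.10, and 0 and 0 without the 7 arrays rich in choroid markers, a fit on fewer arrays. Leaving out arrays or chicks gave 1 to 2 in open and 0 to 3 in goggled eyes. Counts over all probe sets also moved. At 3 d 4 were called with a random block, 1 after quantile normalization and 0 after median centring. Over both times the counts were 11 with a random block, 6 with a 50th percentile filter, which also removed GNAT1, 4 with an offset of 64, 5 with array weights and 7 at 0.10. Between the times they were 895 in open eyes with only the 12 arrays compared, 3335 and 5355 at 0.10, and 2169 in goggled eyes after quantile normalization.

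Signs turned only for differences that had not passed, and the cause was not tested. Median centring gave 0.0082 for CNGB1 at 3 d, 0.0014 for CNGA1 over both times, 0.037, 0.00027 and 0.032 for PDE6B, PDE6G and SAG in the change of the goggle effect, and 0.19 and 0.11 for CNGA1 and SLC24A1 between the times in goggled eyes. Array weights gave -0.024 (CNGA1 at 6 h), -0.0089 (CNGB1 over both) and 0.013 (CNGA1 between the times, goggled), and an offset of 64 gave -0.0021 (CNGB1 over both). Without the choroid-rich arrays CNGB1 was -0.13 at 6 h and -0.17 over both times. The mean of both PDE6G probe sets gave -0.10 and -0.066 between the times in open and goggled eyes and 0.037 in the change of the goggle effect, and the dim second one -0.45, -0.31 and 0.14. On leaving out arrays or chicks, values ranged from -0.070 to 0.078 (CNGA1) and -0.16 to 0.015 (SAG) at 6 h, from -0.17 to 0.021 (CNGB1) at 3 d and from -0.047 to 0.050 (CNGB1) over both. For the change of the goggle effect they ranged from -0.24 to 0.012 (GNAT1), -0.16 to 0.088 (PDE6B), -0.15 to 0.017 (PDE6G) and -0.15 to 0.030 (SAG), and for CNGA1 between the times in goggled eyes from -0.071 to 0.076. GNAT1, close to background, is the member whose size depends most plainly on the offset.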
